A study of Mus musculus with 6 samples.

Results

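Surface colonocytes of the distal colon take up salt and water by coupling apical chloride-bicarbonate exchange to sodium-proton exchange, with carbonic anhydrases supplying bicarbonate and protons from carbon dioxide. Crypt cells secrete chloride through an apical channel that is fed by a basolateral cotransporter. Aquaporins are membrane channels that carry water. The 10 genes of this set are a list of names with no threshold on measured values, drawn up with earlier results of these data known, and all 10 were among the 21374 genes in the deposited table. They are the anion exchanger Slc26a3, the sodium-proton exchangers Slc9a2 and Slc9a3, the carbonic anhydrases Car1, Car2 and Car4, the water channels Aqp4 and Aqp8, the chloride channel Cftr and the sodium-potassium-chloride cotransporter Slc12a2.

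RNA was sequenced from tumour-adjacent distal colon of C57BL/6 males, with 3 libraries labelled Otud1-/- and 3 labelled wild type. All mice of both labels had received the carcinogen azoxymethane (AOM) by injection into the peritoneum on day 0, at 6 weeks of age. They then had 3 cycles of 4 days of 1.5% dextran sulfate sodium (DSS), an agent that injures the colonic epithelium, each followed by 14 days of water. Tissue was collected on day 81 and the age is given as 18 weeks. The labels name no untreated mice, no Cre or transgene, and no part of Otud1 that was removed. They do not say whether libraries came from separate animals. Each p-value therefore reflects library-to-library spread, part of which may be technical.

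Libraries held 15300937 to 19406407 reads. Values are normalised read counts, meaning reads of a gene divided by the size factor of its library, and log2 changes are Otud1-/- minus wild type by label on the scale of log2(value + 1). Otud1, a deubiquitinase gene on chromosome 2 (19657752 to 19660583, a single exon), went against the labels. It had 141, 150 and 208 normalised reads in the libraries labelled Otud1-/-, against 111, 45.1 and 48.9 in those labelled wild type. The change was 1.37 ± 0.35 (SE), with a limma adjusted p of 0.0934 and an exact two-sided permutation p of 0.1, the smallest that 3 against 3 libraries allow. All groups below are therefore libraries as labelled. On the first principal component, which held 38.8% of the variance, Otud1-/- 1 stood at 83.3 and wild type 1 at -86.5, outside the -25.8 to 28.2 of the other 4 libraries. All 12 epithelial markers were present in every library, their summed level being 295049 to 423206 in the libraries labelled Otud1-/- and 461123 to 546515 in those labelled wild type.

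None of the 10 transport genes passed the test between the labels, whereas 0.949% of the 21281 genes tested did (limma, adjusted p under 0.05). None passed at an unadjusted p under 0.05 either, against 19.5% of all genes, and none passed with edgeR (0.7% of genes) or DESeq2 (8.05%). Adjusted p-values of the 10 genes ran between 0.27 and 0.857 (limma). Of their changes 6 were negative and 4 positive. Their median change was -0.34, and that of all genes tested was 0.02. Car4 and Aqp4 were the 2 genes whose libraries did not overlap, lower in all those labelled Otud1-/-, as were 13.3% of all genes. What stood out was the spread among the libraries labelled Otud1-/-. Otud1-/- 1 was the lowest of the 6 libraries for 8 of the 10 genes, against 34.7% of the 6651 genes with a mean of at least 500 normalised reads. The highest over the lowest library had a median ratio of 4.19 across the 10 genes in the libraries labelled Otud1-/- and 1.52 in those labelled wild type. It was larger in the libraries labelled Otud1-/- for all 10 genes, as for 65.1% of those 6651 genes, over which the median ratios were 1.24 and 1.17. These comparisons of spread were chosen after the values were seen and carry no test.

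**Figure D1:**
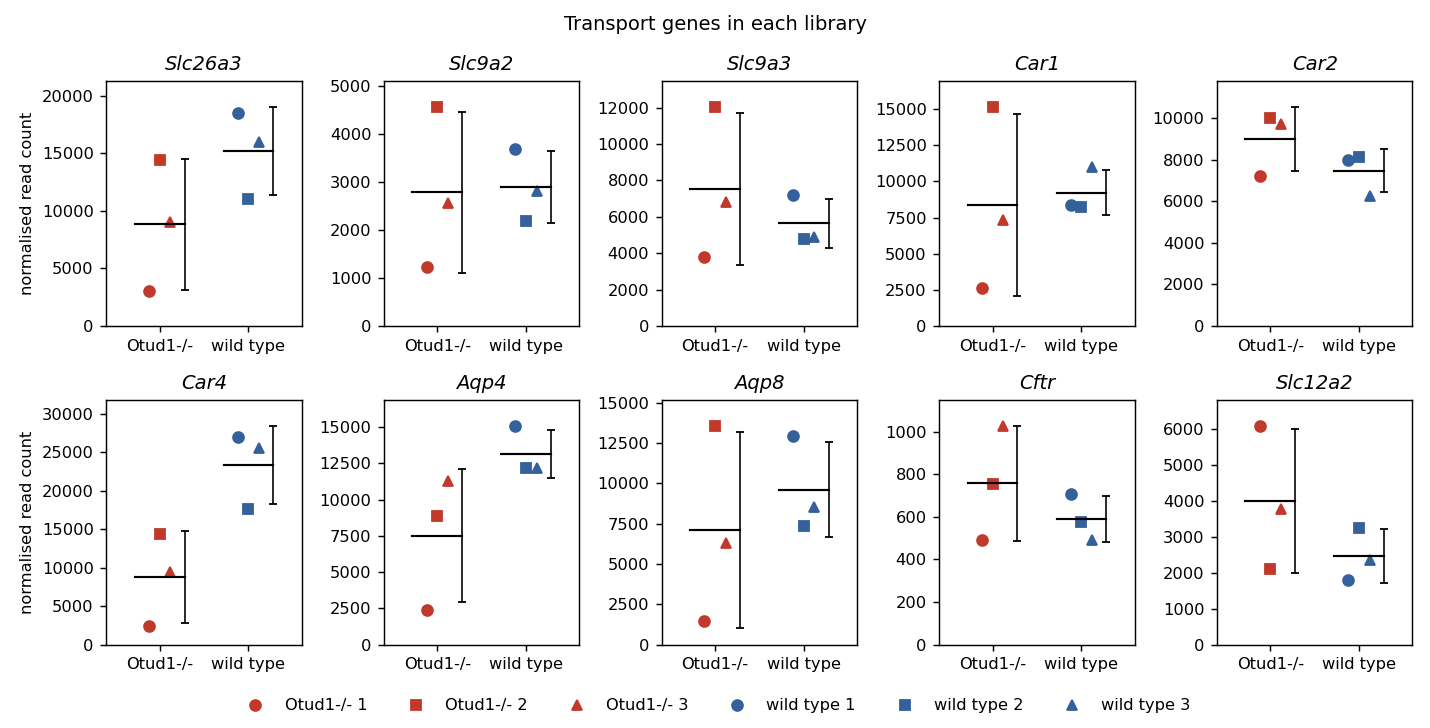
Normalised read counts (vertical axes, linear from 0) of the 10 transport genes in the 3 libraries labelled Otud1-/- (left, red) and the 3 labelled wild type (right, blue); marker shape gives the library number, lines are means and bars SD. Otud1-/- 1 is the lowest point for 8 of the 10 genes, and the labels do not overlap for Car4 and Aqp4.

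Promoters are shown because several of these genes varied together across libraries, and whether promoter sequence has a part in this was not tested. RefSeq windows (GRCm38.p6) run over 250 bases before the transcription start and 50 from it onwards. They were examined for 5 of the 10 genes: Slc26a3, Car4, Aqp8, Slc9a3 and Cftr. Windows of the remaining genes were not examined, which does not mean that RefSeq lacks them. Capitals mark matches, on either strand, to the TATA-type motif TATAAA, the CDX-type motif TTTATTG and the GC box GGGCGG. The HNF4-type motif CAAAGTCCA and the GATA-type motif AGATAA were searched too and had no match in the 5 windows. Below are Slc26a3 at chr12:31437969-31438268, Aqp8 at chr7:123462044-123462343, Car4 at chr11:84957504-84957803 and Cftr at chr6:18170437-18170736, all on the plus strand.
Slc26a3: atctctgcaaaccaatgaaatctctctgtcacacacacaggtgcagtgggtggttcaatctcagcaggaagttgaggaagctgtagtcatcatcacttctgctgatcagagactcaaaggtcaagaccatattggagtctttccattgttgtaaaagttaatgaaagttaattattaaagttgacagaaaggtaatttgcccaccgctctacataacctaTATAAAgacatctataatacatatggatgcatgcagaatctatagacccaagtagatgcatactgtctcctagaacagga
Aqp8: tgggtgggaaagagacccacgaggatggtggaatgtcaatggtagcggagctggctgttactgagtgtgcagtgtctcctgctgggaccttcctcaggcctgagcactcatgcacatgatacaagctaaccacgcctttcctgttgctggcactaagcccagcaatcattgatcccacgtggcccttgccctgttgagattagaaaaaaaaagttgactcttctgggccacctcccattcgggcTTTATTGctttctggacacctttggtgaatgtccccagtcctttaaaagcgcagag
Car4: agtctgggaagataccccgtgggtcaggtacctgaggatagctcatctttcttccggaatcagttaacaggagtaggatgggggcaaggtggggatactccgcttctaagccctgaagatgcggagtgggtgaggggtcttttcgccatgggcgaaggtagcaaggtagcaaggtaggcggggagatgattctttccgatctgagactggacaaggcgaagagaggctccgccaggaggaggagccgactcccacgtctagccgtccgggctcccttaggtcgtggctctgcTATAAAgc
Cftr: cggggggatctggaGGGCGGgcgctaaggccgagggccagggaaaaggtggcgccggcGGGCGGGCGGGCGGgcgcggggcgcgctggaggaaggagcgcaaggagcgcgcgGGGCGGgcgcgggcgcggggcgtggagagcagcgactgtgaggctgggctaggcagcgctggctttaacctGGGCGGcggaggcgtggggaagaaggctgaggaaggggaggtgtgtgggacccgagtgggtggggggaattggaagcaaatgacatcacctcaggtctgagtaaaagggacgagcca
Slc26a3 held a single TATAAA, starting 30 bases before the transcription start, where 13.6% of all 32851 windows of this length hold the motif anywhere. This RefSeq start lies 47.3 kb inside the gene span of the GENCODE annotation, which begins further upstream. Car4 held it too, but after its annotated start, at bases 293 to 298 of the window. Aqp8 held the TTTATTG match at bases 245 to 251, at the start itself, a motif found in 4.6% of windows. Cftr held 6 GC boxes, 3 of them overlapping each other, and Slc9a3 held 3, a motif found in 35.7% of windows. GC content was 39.3% in the Slc26a3 window, 52.0% in Aqp8, 57.3% in Car4, 68.7% in Slc9a3 and 71.3% in Cftr, with a median of 52.7% over all windows. AGATAA occurs in 11.2% of windows and CAAAGTCCA in 0.475%. The CDX-type motif and the reverse strand of the TATA-type motif can share letters, but no matches of different motifs overlapped in these windows.

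Slc26a3, the apical exchanger first described as down-regulated in adenoma and mutated in human congenital chloride diarrhoea, lies on chromosome 12 (31390871 to 31473917 in GRCm38, plus strand). Its normalised read counts were 3052, 14422 and 9045 in Otud1-/- 1, 2 and 3, against 18523, 11065 and 16025 in wild type 1, 2 and 3. Otud1-/- 2 lay above wild type 2, so the labels overlapped, and Otud1-/- 1 stood at 20.1% of the wild type mean. Means were 8840 ± 5688 in the libraries labelled Otud1-/- and 15204 ± 3796 in those labelled wild type (SD, n = 3 each). The change was -1.01 ± 0.62 (SE), with a 95% interval of -2.58 to 0.55 and a limma adjusted p of 0.43. Without Otud1-/- 1 the change was -0.38, and without Otud1-/- 2 it was -1.50. In bulk tissue, fewer cells of a type and less RNA per cell cannot be told apart.

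The sodium-proton exchangers trade luminal sodium for protons at the apical membrane, with Slc9a3 encoding NHE3 and Slc9a2 encoding NHE2. Slc9a2 (chromosome 1, 40680574 to 40769273) had 1235, 4564 and 2559 normalised reads in Otud1-/- 1, 2 and 3, against 3689, 2198 and 2810 in wild type 1, 2 and 3. Slc9a3 (chromosome 13, 74121457 to 74169442) had 3769, 12016 and 6839 in Otud1-/- 1, 2 and 3, against 7212, 4802 and 4906 in wild type 1, 2 and 3. For both genes Otud1-/- 1 was the lowest and Otud1-/- 2 the highest of all libraries, so the wild type libraries lay inside the range of the others. The change of Slc9a2 was -0.22 ± 0.51 (SE), with a 95% interval of -1.50 to 1.06 (limma, adjusted p = 0.857). That of Slc9a3 was 0.29 ± 0.44 (SE), with an interval of -0.80 to 1.38 (limma, adjusted p = 0.768). The sign of Slc9a2 turned to 0.27 without Otud1-/- 1 and to 0.24 after scaling to the epithelial markers, and that of Slc9a3 to -0.13 without Otud1-/- 2.

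Carbonic anhydrases interconvert carbon dioxide and bicarbonate. Car1 and Car2 encode cytosolic enzymes, and Car4 encodes an enzyme anchored to the outer face of the membrane. Car4 (chromosome 11, 84957786 to 84966044) had the most negative change of the 10 genes. Its normalised read counts were 2429, 14379 and 9431 in Otud1-/- 1, 2 and 3, against 26986, 17591 and 25538 in wild type 1, 2 and 3. All libraries labelled Otud1-/- were below all labelled wild type, at 10.4%, 61.5% and 40.4% of the wild type mean. Means were 8746 ± 6004 in the libraries labelled Otud1-/- and 23372 ± 5058 in those labelled wild type (SD, n = 3 each). The change was -1.73 ± 0.71 (SE), with a 95% interval of -3.53 to 0.07, an unadjusted p of 0.0561 and an adjusted p of 0.27 (limma). It stayed negative with each library left out, between -2.26 without Otud1-/- 2 and -0.98 without Otud1-/- 1, and did not pass in any of these fits.

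Car1 and Car2 are neighbours on chromosome 3 (14766216 to 14808368 on the minus strand and 14886273 to 14900770 on the plus strand), 77.9 kb apart with Car3 as the 1 coding gene between them. Car1 had 2613, 15129 and 7350 normalised reads in Otud1-/- 1, 2 and 3, against 8379, 8242 and 11003 in wild type 1, 2 and 3. Car2 had 7222, 10036 and 9722 in Otud1-/- 1, 2 and 3, against 8014, 8120 and 6278 in wild type 1, 2 and 3. The neighbours thus differed in pattern: Car1 spread 5.79-fold within the libraries labelled Otud1-/-, and Car2 spread 1.39-fold. Neither passed the test, with changes of -0.46 ± 0.66 (SE) for Car1 (limma, adjusted p = 0.753) and 0.26 ± 0.16 (SE) for Car2 (limma, adjusted p = 0.413). Their 95% intervals were -2.14 to 1.22 and -0.11 to 0.63. The sign of Car1 turned without Otud1-/- 1 (0.21), and its change was 0.00 after scaling to the epithelial markers. Car2 was the 1 gene of the 10 that any of the fits run called. Relative to the epithelial markers its change was 0.73 (limma, adjusted p = 0.018), in a fit where 11.2% of all genes were called higher and the median of all genes stood at 0.48. Red blood cells also contain Car1 protein. The summed level of 6 red cell markers was 131 to 701 in the libraries labelled Otud1-/- and 83.6 to 229 in those labelled wild type, with its maximum in Otud1-/- 1. Whether red cells had a part in the Car1 values was not tested.

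The water channel Aqp8 is abundant in surface colonocytes of rodents, and Aqp4 encodes a water channel of basolateral membranes. Aqp8 (chromosome 7, 123462291 to 123468004) had 1472, 13580 and 6304 normalised reads in Otud1-/- 1, 2 and 3, against 12943, 7370 and 8523 in wild type 1, 2 and 3. The 9.23-fold range within the libraries labelled Otud1-/- was the largest of the 10 genes, and Otud1-/- 2 was above every wild type library. Aqp4 (chromosome 18, 15389496 to 15410982) had 2406, 8838 and 11282 in Otud1-/- 1, 2 and 3, against 15090, 12196 and 12159 in wild type 1, 2 and 3. Here the labels did not overlap, although Otud1-/- 3 came close to wild type 3. The changes were -0.90 ± 0.88 (SE) for Aqp8 (95% interval -3.18 to 1.39, limma, adjusted p = 0.634) and -1.07 ± 0.62 (SE) for Aqp4 (interval -2.64 to 0.49, limma, adjusted p = 0.406). Without Otud1-/- 1 they were -0.01 and -0.39.

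Cftr encodes the apical chloride channel affected in cystic fibrosis, and Slc12a2 encodes NKCC1, the basolateral cotransporter that loads secretory cells with chloride. Cftr (chromosome 6, 18170687 to 18322768) had 490, 756 and 1028 normalised reads in Otud1-/- 1, 2 and 3, against 707, 574 and 494 in wild type 1, 2 and 3. Slc12a2 (chromosome 18, 57878678 to 57946821) had 6088, 2092 and 3783 in Otud1-/- 1, 2 and 3, against 1790, 3255 and 2345 in wild type 1, 2 and 3. Slc12a2 was the 1 gene of the 10 that was highest in Otud1-/- 1, at 247% of the wild type mean, and it was lowest in wild type 1. Both genes overlapped between labels. The change of Cftr was 0.31 ± 0.27 (SE), with a 95% interval of -0.32 to 0.94 (limma, adjusted p = 0.567). That of Slc12a2 was 0.61 ± 0.44 (SE), with an interval of -0.48 to 1.69 (limma, adjusted p = 0.499). The change of Cftr was 0.06 without Otud1-/- 3 and 0.59 without Otud1-/- 1. That of Slc12a2 was 0.23 without Otud1-/- 1, 0.40 without wild type 1 and 0.03 without both.

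**Figure D2:**
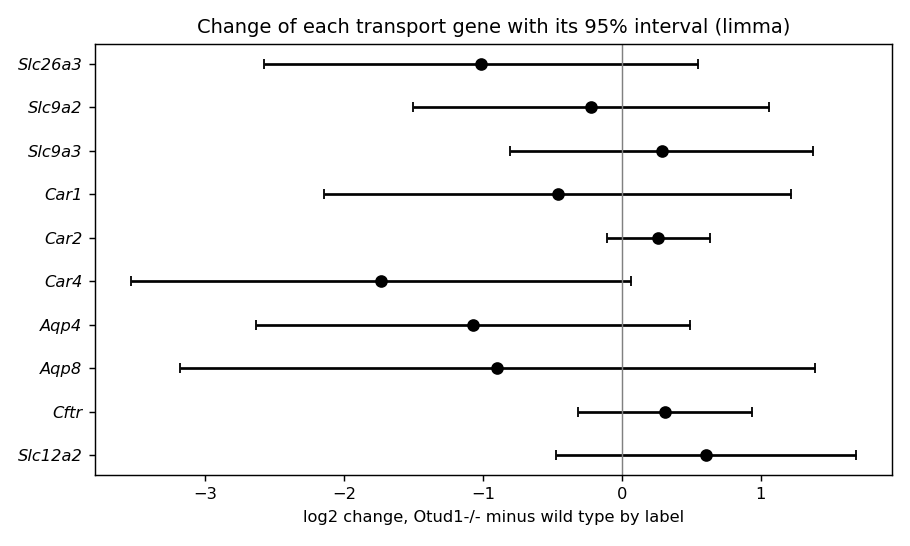
Log2 change of each transport gene (horizontal axis), Otud1-/- minus wild type by label, as points with 95% intervals from limma over 3 against 3 libraries. All 10 intervals include 0, and that of Car4 reaches from -3.53 to 0.07.

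Levels were compared between genes per kilobase of exon. Car4 and Car1 were the most abundant, at ranks 74 and 98 of 21317 genes with a known exon length, and Cftr was the least, at rank 7879. In the libraries labelled Otud1-/-, Car1 had 6702 ± 5064 normalised reads per kilobase, Aqp8 4503 ± 3855, Car4 4449 ± 3054 and Car2 3713 ± 637 (SD, n = 3). The spread of these levels did not separate neighbours in the order, and that of Aqp8 also reached the next 3 genes. Slc26a3 at 1388 ± 893, Slc9a3 at 1370 ± 757 and Aqp4 at 1205 ± 736 followed, then Slc9a2 at 399 ± 240, Slc12a2 at 365 ± 184 (within the spread of Slc9a2) and Cftr at 97.6 ± 34.7. In the libraries labelled wild type the order was clearer. Car4 led with 11888 ± 2573 normalised reads per kilobase, followed by Car1 at 7378 ± 1246, Aqp8 at 6080 ± 1861, Car2 at 3085 ± 427, Slc26a3 at 2387 ± 596 and Aqp4 at 2109 ± 270. Slc9a3 (1025 ± 247), Slc9a2 (415 ± 107), Slc12a2 (226 ± 67.7) and Cftr (76.2 ± 13.9) came last. There, Car1 and Aqp8, and likewise Slc26a3 and Aqp4, differed by less than the larger of their SDs.

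Likeness of pattern was measured as the root mean square difference of log2 values over the 6 libraries, after centring each gene on its own mean, so that 0 means an identical pattern. Over the 45 pairs of the 10 genes the most alike were Car2 and Cftr at 0.22, Slc9a2 and Slc9a3 at 0.28, and Slc26a3 and Aqp8 at 0.31. The least alike was Car4 with Slc12a2 at 1.73. Slc26a3 was also close to Aqp4 (0.34), Car1 (0.37) and Car4 (0.38), and far from Slc12a2 (1.44). Genes that vary little have small differences of this kind whatever their pattern, and Car2 varied least within the libraries labelled Otud1-/- of the 10 genes. All genes share the same 6 libraries and their depth, so these values describe these libraries alone.

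Among 11115 named genes with a mean of at least 100, the nearest to Slc26a3 was Slc13a2, which encodes a sodium-coupled dicarboxylate transporter, at 0.05. Slc13a2 had 877, 4273 and 2723 normalised reads in Otud1-/- 1, 2 and 3, against 5833, 3527 and 4985 in wild type 1, 2 and 3, which is the library order of Slc26a3. Next were Slc13a2os at 0.14, the sialyltransferase gene St3gal4 at 0.15, the cytochrome P450 gene Cyp4f14 at 0.16 and Apol6 at 0.18. Slc13a2os is the antisense partner of Slc13a2, and without a stated strand setting reads of that pair cannot be told apart. Aqp8, Aqp4, Car1 and Car4 were at ranks 32, 47, 72 and 80 of that search.

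**Figure D3:**
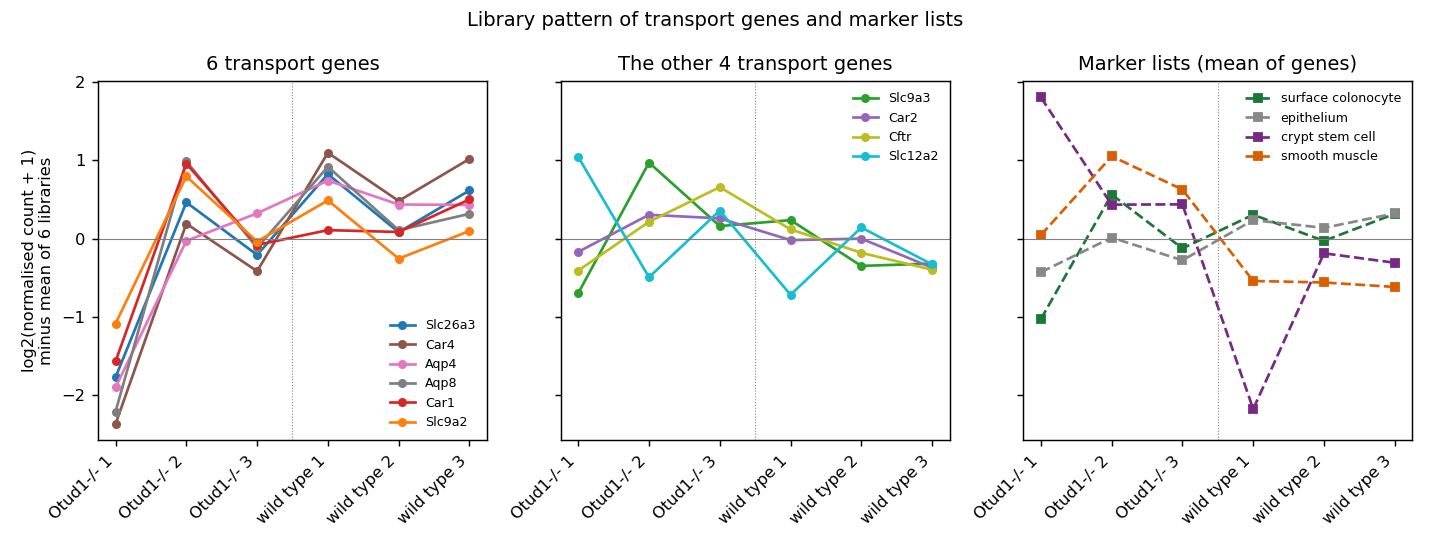
Log2(normalised count + 1) minus the mean of the 6 libraries (vertical axis) for the transport genes (left and middle panels) and for the mean of 4 marker lists (right), with Otud1-/- libraries left of the dotted line and wild type right of it. The 6 genes on the left are lowest in Otud1-/- 1, as are Slc9a3 and Cftr in the middle panel. The surface colonocyte and epithelium lists are lowest there too, while Slc12a2 and the crypt stem cell list peak there.

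Marker lists moved with these patterns, and their part in them was not tested. Surface colonocyte markers (8 genes, all present in every library) had a summed level of 144601, 256996 and 214628 in Otud1-/- 1, 2 and 3, against 334054, 318314 and 404683 in wild type 1, 2 and 3. Otud1-/- 1 was thus lowest for these too, and 7 of the 8 had negative changes with none called. Crypt stem cell markers (6 genes, all present) summed to 12743, 5187 and 5490 in Otud1-/- 1, 2 and 3, against 1712, 3783 and 3414 in wild type 1, 2 and 3, all 6 positive and none called. Their lowest and highest libraries, wild type 1 and Otud1-/- 1, were the lowest and highest for Slc12a2. Of the 12 epithelial markers 11 had negative changes and none was called. Their summed level was also lowest in Otud1-/- 1, at 295049.

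Few markers of other cell types were called. Goblet cell markers (7 genes) summed to 89664 to 100101 in the libraries labelled Otud1-/- and 236413 to 252077 in those labelled wild type, with 7 of 7 negative and 1 called, Fcgbp, where 0.667% of all genes were called lower. Smooth muscle markers (7 genes) summed to 53801 to 112524 in the libraries labelled Otud1-/- and 32352 to 35702 in those labelled wild type, with 7 of 7 positive and 2 called, Myh11 and Myl9, where 0.282% of all genes were called higher. Leukocyte markers (5 genes) summed to 1794 to 3479 in the libraries labelled Otud1-/- and 3838 to 8594 in those labelled wild type, all 5 negative. Their lowest library was Otud1-/- 1 as well. Glia and neuron markers (6 genes) summed to 499 to 801 in the libraries labelled Otud1-/- and 458 to 516 in those labelled wild type. Endothelial markers (5 genes) summed to 1310 to 1954 in the libraries labelled Otud1-/- and 1213 to 1774 in those labelled wild type. None of the leukocyte, glia and neuron, endothelial or red cell markers was called. The lists hold no gene at 0 in every library. In Otud1-/- 2, where Slc9a2, Slc9a3, Car1, Car2 and Aqp8 were highest, the smooth muscle sum was also the highest of the 6 libraries. So was the mean log2 level of the surface colonocyte markers, at 12.01, 13.61 and 12.92 in Otud1-/- 1, 2 and 3, against 13.35, 13.01 and 13.36 in wild type 1, 2 and 3, although their summed level there was below all wild type libraries.

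Set against the epithelial markers library by library, 3 genes did not overlap between labels: Car4 was lower in all libraries labelled Otud1-/-, as were 1.66% of all genes, and Car2 and Cftr were higher, as were 39.1%. On a log2 scale, relative to the mean epithelial marker, Car4 stood at -2.82, -0.70 and -1.02 in Otud1-/- 1, 2 and 3, against -0.01, -0.53 and -0.18 in wild type 1, 2 and 3. Otud1-/- 1 stood furthest below the epithelial level. Car2 stood at -1.25, -1.22 and -0.97 in Otud1-/- 1, 2 and 3, against -1.76, -1.65 and -2.20 in wild type 1, 2 and 3. Cftr stood at -5.13, -4.95 and -4.21 in Otud1-/- 1, 2 and 3, against -5.27, -5.47 and -5.87 in wild type 1, 2 and 3. Car2 and Cftr were nearer to the epithelial level in the libraries labelled Otud1-/-. Aqp4, which did not overlap in normalised reads, did so on this scale. In the limma fit on this scale the change of Car4 was -1.27 (adjusted p = 0.237) and that of Cftr 0.77 (adjusted p = 0.0523), beside a median of 0.48 over all genes. Slc26a3 stood at -0.55, Aqp4 at -0.61, Aqp8 at -0.43, Slc9a3 at 0.75 and Slc12a2 at 1.07 in that fit, none of them called.

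**Figure D4:**
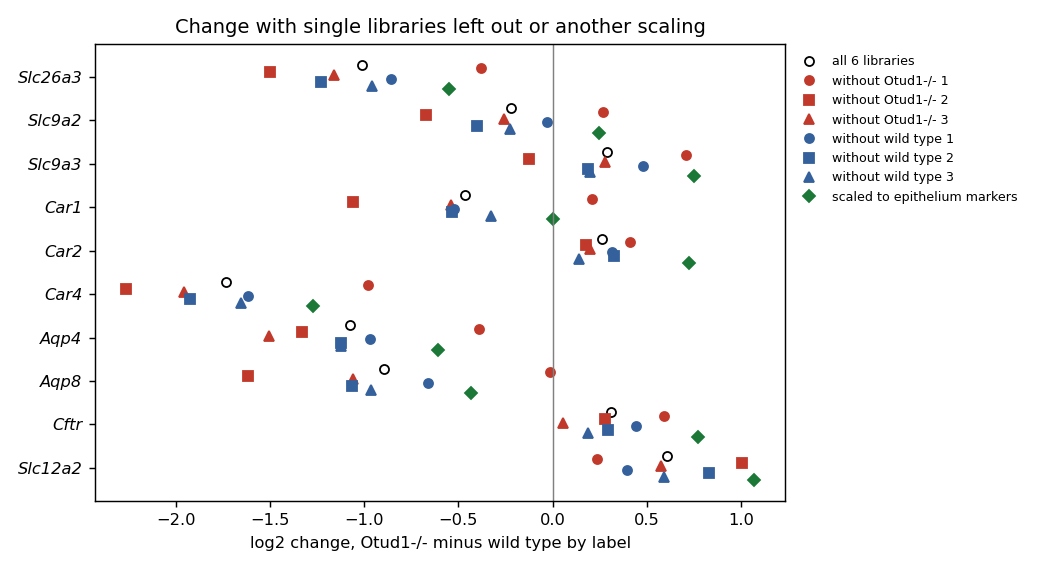
Log2 change of each transport gene (horizontal axis), Otud1-/- minus wild type by label, with all 6 libraries, with each library left out, and after scaling to the epithelial markers. Leaving out Otud1-/- 1 moved Slc26a3 to -0.38, Aqp8 to -0.01 and Car1 to 0.21, and Car4 stayed at or below -0.98 with any 1 library left out.

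Of 53 other genes of ion, bicarbonate and water transport, 51 were in the table and tested, and 2 fell in the libraries labelled Otud1-/- (limma, adjusted p under 0.05), where 0.667% of all genes did. None rose, against 0.282% of all genes. The direction of the calls depended on scaling: 1 was lower and 2 higher with scaling to total reads, and 1 lower and 8 higher with scaling to the epithelial markers. The same turn was seen over all genes. Of all calls 70.3% were lower in the main fit, 24.8% with total reads and 4.33% with epithelial scaling, where 11.2% of all genes were called higher. At an unadjusted p under 0.05 (limma), 8 were lower and 6 higher, against 9.97% and 9.5% of all genes. With DESeq2 8 of them were called, where 8.05% of all genes were called in either direction. Of these calls 5 were lower (Pdzd3, Car9, Atp1b1, Atp12a and Gucy2c). The other 3 were higher (Slc4a3, Aqp1 and Kcnq1), where 3.87% of all genes were called higher. The median change of the 51 genes was 0.03 in the main fit. Atp12a, the catalytic subunit of the colonic proton-potassium pump, had 2199, 2447 and 1843 normalised reads in Otud1-/- 1, 2 and 3, against 3658, 5482 and 5925 in wild type 1, 2 and 3. All libraries labelled Otud1-/- were below all labelled wild type, a change of -1.19 ± 0.19 (SE, limma, adjusted p = 0.0362). Pdzd3, a scaffold protein with PDZ domains, had 360, 405 and 460 in Otud1-/- 1, 2 and 3, against 796, 637 and 977 in wild type 1, 2 and 3. Its change was -0.96 ± 0.17 (SE, limma, adjusted p = 0.0457), again with no overlap. Atp12a lost its call without Otud1-/- 1 (limma, adjusted p = 0.0634), Otud1-/- 3 (0.0787), wild type 2 (0.14) or wild type 3 (0.164). Scaling to the epithelial markers put Atp12a at -0.73 with its call kept and Pdzd3 at -0.50 with its call lost. Pdzd3 kept its call without Otud1-/- 1, and lost it without any other single library (limma, adjusted p = 0.0556 to 0.173).

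The remaining members of that list missed the threshold in the main fit, and some were called in other fits. Among the carbonic anhydrases, Car9, a membrane enzyme induced by hypoxia, had 1078, 1739 and 1260 normalised reads in Otud1-/- 1, 2 and 3, against 2365, 2513 and 2359 in wild type 1, 2 and 3. That is a change of -0.86 ± 0.17 (SE, limma, adjusted p = 0.0519), with Car8 at -0.31 (-0.39 for Car9 and 0.15 for Car8 after scaling to the epithelial markers). Car9 was called lower with DESeq2 (adjusted p = 0.00243) and with sample weights (limma, adjusted p = 0.0149). It was also called lower without Otud1-/- 1 (limma, adjusted p = 0.0473) and without Otud1-/- 2 (0.0104). Among anion and bicarbonate transporters Slc4a3 had a change of 0.94 ± 0.20 (SE, limma, adjusted p = 0.0595) and Slc4a4 of 0.41 ± 0.16 (SE, limma, adjusted p = 0.215), both higher in every library labelled Otud1-/-. Of the 51 genes tested from that list, 7 were lower and 8 higher without overlap between labels, against 13.3% and 13.0% of all genes. Aqp1, the water channel of endothelium, had 563, 665 and 685 in Otud1-/- 1, 2 and 3, against 372, 480 and 427 in wild type 1, 2 and 3. Its change was 0.58 ± 0.14 (SE, limma, adjusted p = 0.0868), and Aqp3 had at most 20 normalised reads in any library. Slc4a3 and Aqp1 were each called higher with DESeq2, with sample weights, and with scaling to total reads or to the epithelial markers. The potassium-chloride cotransporter gene Slc12a4 stood at 0.19. Gucy2c, the receptor for guanylin, stood at -0.59 ± 0.15 (SE, limma, adjusted p = 0.0957) and at -0.13 after scaling to the epithelial markers. DESeq2 called Gucy2c lower (adjusted p = 0.0362). Also in this group was Prkg2, a kinase activated by cyclic GMP, with a change of 2.36 ± 0.79 (SE, limma, adjusted p = 0.201). Prkg2 had 728, 235 and 205 normalised reads in Otud1-/- 1, 2 and 3, against 23.2, 131 and 81.6 in wild type 1, 2 and 3. Without wild type 1 and Otud1-/- 1 together its change was 1.08.

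The guanylin gene Guca2a, chosen after its values were seen, had 3959, 21870 and 8302 normalised reads in Otud1-/- 1, 2 and 3, against 4210, 2537 and 4594 in wild type 1, 2 and 3. Guanylin is a peptide that acts on the product of Gucy2c to promote salt and water secretion. As for Slc9a2, Slc9a3 and Aqp8, its highest library was Otud1-/- 2, and the labels overlapped (change 1.29 ± 0.68 SE, limma, adjusted p = 0.368). The sodium pump subunit Atp1b1, likewise chosen afterwards, had 15579, 14554 and 16837 in Otud1-/- 1, 2 and 3, against 21189, 21035 and 23121 in wild type 1, 2 and 3. All its libraries labelled Otud1-/- were below all labelled wild type, as for 13.3% of all genes. It missed the threshold in the main fit (-0.48 ± 0.12 SE, limma, adjusted p = 0.0926) and was called lower with DESeq2. On a log2 scale relative to the epithelial markers, Atp1b1 overlapped between labels. There it stood at -0.14, -0.68 and -0.18 in Otud1-/- 1, 2 and 3, against -0.36, -0.27 and -0.32 in wild type 1, 2 and 3. Its normalised reads spread 1.16-fold within the libraries labelled Otud1-/- and 1.10-fold within those labelled wild type.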

How the data were processed

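RNA sequencing of 6 libraries of tumour-adjacent mouse colon, 3 per label, was analysed. Reads had been placed on mm10, as the submitters' processing notes state. Not given in the sources used here are the aligner, counter, strand setting and annotation. The deposited table holds a normalised signal per gene. Every value of a column was a whole multiple of 1 step (100% of values, within 0.001 of a read), so the reads behind it were recovered. The step of Otud1-/- 3, 1.01, is so near 1 that this rests on the decimals of its values. Each gene had at least 10 reads over the 6 libraries. The labels name no molecular identifiers, so read numbers are not numbers of independent molecules.

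IDs were matched to GENCODE vM21 (GRCm38): 21317 of 21374 matched a symbol, and 57 did not. Exon length was the union of all annotated exons. Genes with a value of at least 1 in at least 3 libraries (21281, leaving out 93) were tested with limma 3.58.1 in R 4.3.3 (trend and robust) on log2(value + 1), two-sided, with genotype as the only term and Benjamini-Hochberg adjustment. Samples were grouped by title. As alternatives, edgeR 4.0.16 (quasi-likelihood test, TMM) and DESeq2 1.42.0 took the recovered reads; these and the main limma fit were tested on simulated data. Alternatives were other filters, pseudocounts, scalings, weights, the replicate number as a block and the omission of libraries.

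The 10 genes, the lists and the alternatives were chosen with earlier results of these data known. Named genes were the 10, the called genes of each role of the wider list or else up to 2 with the smallest p, and the 5 most like Slc26a3; the values of 1 gene that this rule names are not reported here. Slc26a3, Slc9a2, Car1, Aqp4 and Cftr each overlap another annotated gene, so some of their reads may be shared. Promoter sequences were those of RefSeq.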

Additional observations from a re-analysis of the deposited data

How the results depend on the processing

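No transport gene of the 10 passed in 18 of 19 alternatives; scaling to the epithelial markers called 1, Car2 (0.73). Signs turned for Slc9a2 (0.24 with that scaling, 0.46 without wild type 1 and Otud1-/- 1 together, -0.67 to 0.27 with single libraries left out), Slc9a3 (-0.13 to 0.71 with single libraries left out), Car1 (0.0017 with that scaling, 0.15 without wild type 1 and Otud1-/- 1, -1.06 to 0.21 with single libraries left out) and Aqp8 (0.22 without wild type 1 and Otud1-/- 1). Slc26a3, Car4, Aqp4, Car2, Cftr and Slc12a2 kept their sign in all 19, with values down to 0.0262 for Slc12a2 (without wild type 1 and Otud1-/- 1) and 0.0571 for Cftr (without Otud1-/- 3), and 0.14 to 0.41 for Car2 with single libraries left out. The negative changes shrank most without wild type 1 and Otud1-/- 1 together, to -0.22 for Slc26a3, -0.29 for Aqp4 and -0.86 for Car4. Car8 turned to 0.15 with epithelial scaling.

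The wider list had 2 calls. It had 1 with a filter at a mean of 5 and with a pseudocount of 0.1, 0 after quantile normalisation, without trend and robust (limma; 3499 of all genes at an unadjusted p under 0.05) and with the replicate block, 5 with sample weights, 8 with DESeq2, 9 with epithelial scaling (1 lower, 8 higher), 3 with scaling to total reads (1 lower, 2 higher), and 0 to 2 with single libraries left out. Over all genes 202 were called. The count was 122 with a filter at a mean of 5, 118 with a pseudocount of 0.1, 416 with scaling to total reads, 2496 with epithelial scaling, 0 without trend and robust, 564 with sample weights, 1414 with DESeq2, 18 with the replicate block, 393 without wild type 1 and Otud1-/- 1, and 10 to 351 with single libraries left out. The share of calls that were lower was 70.3%, against 60.1% after quantile normalisation, 24.8% with total reads, 4.33% with epithelial scaling and 51.9% with DESeq2; scaling to total reads put the median of all genes at 0.22 and epithelial scaling at 0.48, against 0.02.

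Otud1 passed with epithelial scaling (1.83, limma, adjusted p = 0.00688), sample weights (1.58, 0.0442), DESeq2 (1.28, 0.0147) and without wild type 1 and Otud1-/- 1 (1.89, 0.00546), with adjusted p between 0.00546 and 0.257 over all alternatives. No label says whether the replicate numbers pair libraries. Deviations from label means correlated at -0.26, -0.10 and -0.09 between same-numbered libraries, and Otud1-/- 1, 2 and 3 each correlated better with another number than with their own. These correlations cannot decide on pairing, since deviations of 3 libraries around their own mean constrain each other. The block changed no call among the 10 genes and left 18 calls over all genes, against 202. Whether the block fits the design is not known. With 3 libraries per label and the spread seen in Otud1-/- libraries, intervals were wide. That of Aqp8 spans -3.18 to 1.39, that of Car1 -2.14 to 1.22 and that of Slc9a2 -1.50 to 1.06. Each of these includes changes of over 2-fold in either direction.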
